A study of Schizosaccharomyces pombe with 2 samples.

Results

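In fission yeast (Schizosaccharomyces pombe), 224 windows of 1 kb on chromosome 2 carried wild-type array signal from both strands at once. They were selected on the wild-type signal of a tiling array, out of 1901 windows of the long tiled block from 1000001 to 3050000, without the intervals 1590001 to 1660000, 2100001 to 2160000, 1812001 to 1821000 and 1964001 to 1974000. For each window and strand, the median over probes of the log2 background-subtracted signal was averaged over the wild-type channels of both arrays. A window was a member where both strands reached 9.02, the median of all 3802 such values. The members were 11.8% of the windows. Another 1453 windows (76.4%) reached the median on 1 strand and 224 on neither. Because the threshold is the median of all values, the number with both strands equals the number with neither by construction.

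The series compared RNA of asf1-1 cells and of ∆hip1 cells with wild-type RNA, on 1 two-colour array for each mutant. All cells grew exponentially at 30 °C in rich medium (YEA), per the labels. The mutant was labelled with Cy5 (red) and wild type with Cy3 (green) on both arrays, with no dye swap, so dye and genotype cannot be told apart. With 1 array for each mutant and no replicate, no test was run, and every difference below compares these hybridisations. Both arrays lay on 1 slide and were read in 1 scan.

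Asf1 is a chaperone that hands histones H3 and H4 to chromatin assembly factors. It is essential in fission yeast, where asf1-1 is a mutant allele of its gene. ∆hip1 is a deletion. Hip1 belongs to the HIRA complex, which deposits H3-H4 outside DNA replication and receives histones from Asf1. The fission yeast genome is compact, and neighbouring genes often run towards each other or away from each other with little space between them. Signal from both strands of a short stretch can come from transcripts that run past the end of a convergent gene, from divergent starts, or from antisense RNA made over a gene. Chaperones that rebuild nucleosomes behind RNA polymerase, HIRA among them, are known in yeasts for limiting antisense and cryptic transcription. The series title sets these arrays in work on histone deacetylation and on nucleosome occupancy at heterochromatic loci. The windows described here lie outside the centromere and mating-type intervals of the tiled block.

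The tiled probes are 60 bases long and start every 50 bp on alternating strands, so a member holds 10 probes for each strand and the members hold 4480 probes. A probe is called plus or minus as the array files list it, and is taken to report RNA of that strand. The files do not state this, and with the opposite reading the words head and tail below would swap. Positions are as listed on the array, on a genome build that the labels and headers do not name, and genes are not listed. Members are therefore named by position, no sequence is shown, and the signal of asf1 and hip1 themselves could not be read as a check of the labels. The share of member probes well above background was 98.5% in the asf1-1 channel and 97.7% in the ∆hip1 channel, against 96.1% in both wild-type channels. Over all windows the share was 94.997% in the asf1-1 channel and 90.37% in the ∆hip1 channel, against 81.4% and 80.5% in the wild-type channels. No probe was saturated.

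In wild type, the dimmer strand of a member ranged from 9.02 to 13.14 on the log2 signal scale, with a median of 9.85. The brighter strand ranged from 9.11 to 14.73, with a median of 12.24. The median difference between the strands was 1.86 and the largest was 5.22. In 72 members (32.1%) the strands lay less than 2-fold apart, and in 52 (23.2%) they lay at least 8-fold apart. The minus strand was the brighter one in 121 members (54.0%). Members were thus mostly unequal pairs of a bright and a moderate strand. In windows with signal on 1 strand the brighter strand had a similar median of 12.61, but the dimmer strand had 6.70. In windows with neither strand above the threshold the medians were 7.74 and 6.35.

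**Figure D1:**
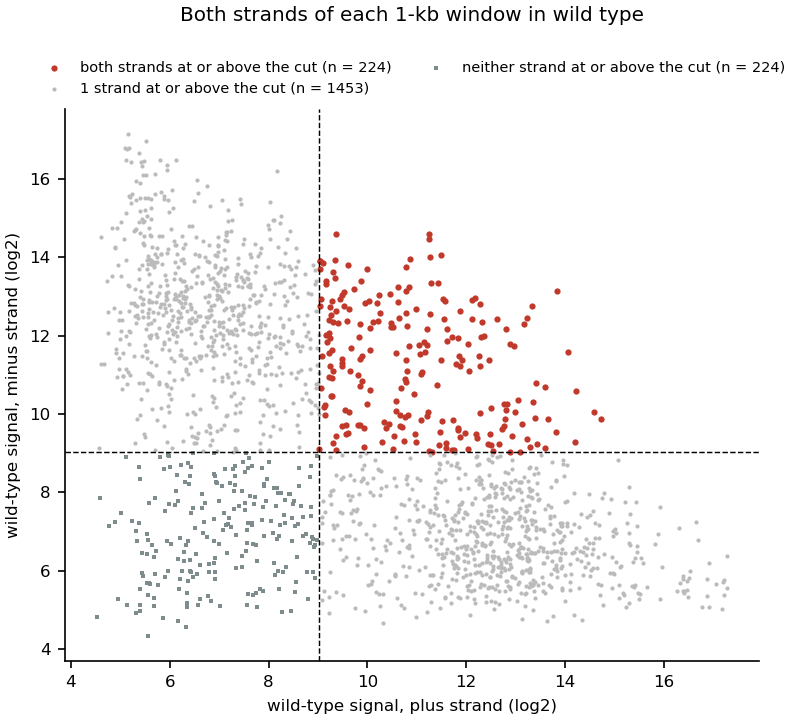
Wild-type log2 signal of the plus strand (horizontal axis) and the minus strand (vertical axis) of each 1-kb window, as the mean of both wild-type channels, with dashed lines at 9.02. Each point is a window. The 224 members (red) fill the upper right corner, while 1453 windows (light grey circles) have 1 strand above the line and 224 (dark squares) neither.

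The threshold passes through a continuous range of values. Just inside it, the dimmer strand of the windows at 2724001, 1361001 and 1284001 had 9.02, 9.03 and 9.04. Just outside it, the windows at 2498001, 1890001 and 2497001 all had 9.02. The wild-type channels of the arrays differed on member strands by a median of 0.14 with an SD of 0.29 over 448 strands (asf1-1 array minus ∆hip1 array). Of the members, 87.9% had both strands at or above the channel's own median on each wild-type array taken alone.

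The members were spread along the block in short runs. They formed 151 runs of neighbouring windows, of which 98 were lone windows, 39 held 2 windows, 9 held 3, 4 held 4 and 1 held 5. Bins of 100 kb held from 5 members (from 1800001) to 20 (from 2300001), with a median of 12 over 18 bins. The longest run lay at 1785001 to 1790000. Within it the brighter strand changed between plus and minus from window to window: the plus strand was brighter at 1785001 and 1788001, and the minus strand at 1786001, 1787001 and 1789001. The brightest of its strands was the minus strand at 1786001, with 13.68 and 13.73 in the wild-type channels, against 10.20 and 9.77 on its plus strand. Of its 10 window-strands, none reached a 2-fold change in either mutant.

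The run at 1125001 to 1129000, with 4 windows, was less uniform. Its first window had 12.26 and 12.10 on the plus strand and 12.94 and 13.01 on the minus strand in the wild-type channels. In its window at 1127001 both strands were near equal in wild type, at 10.73 and 10.63 on plus and 10.80 and 10.55 on minus. There the minus strand had a log2 ratio to wild type of 1.86 ± 1.42 in asf1-1 and 2.08 ± 1.11 in ∆hip1, and the plus strand had -0.99 ± 0.71 and -1.04 ± 0.33 (SD over 10 probes). The strands that had been level in wild type therefore lay apart in both mutants. The minus strand of the next window, at 1128001, had 1.48 ± 0.58 in asf1-1 and 1.44 ± 0.74 in ∆hip1. In the run at 2654001 to 2658000, also of 4 windows, no strand reached 2-fold in either mutant. Its largest ratio was that of the plus strand at 2657001, with 0.94 ± 0.66 in asf1-1 and 0.98 ± 0.42 in ∆hip1.

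To see how the strands share a window, each member was split into a left and a right side of 500 bp. In 111 members (49.6%) both strands reached the threshold on both sides. In 96 (42.9%) they did so together on 1 side only, and in 86 of these a single strand was quiet on a single side. In 12 members (5.36%) the plus strand was above the threshold on the left side only and the minus strand on the right side only, which is tail to tail. In 5 (2.23%) the arrangement was head to head. In 92.4% of members both strands thus had signal over the same 500 bp, and in 57.6% with the threshold raised by 1 on the log2 scale. These values come from the signal that chose the members, which itself forces much of the overlap, here and at the scale of probes. Of the 10 neighbouring pairs of a plus and a minus probe in a member, a median of 6 had both probes at or above the threshold. All 10 did so in 29 members, and none in 3. In windows with signal on 1 strand the median was 0, and 995 of 1453 had no such pair.

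**Figure D2:**
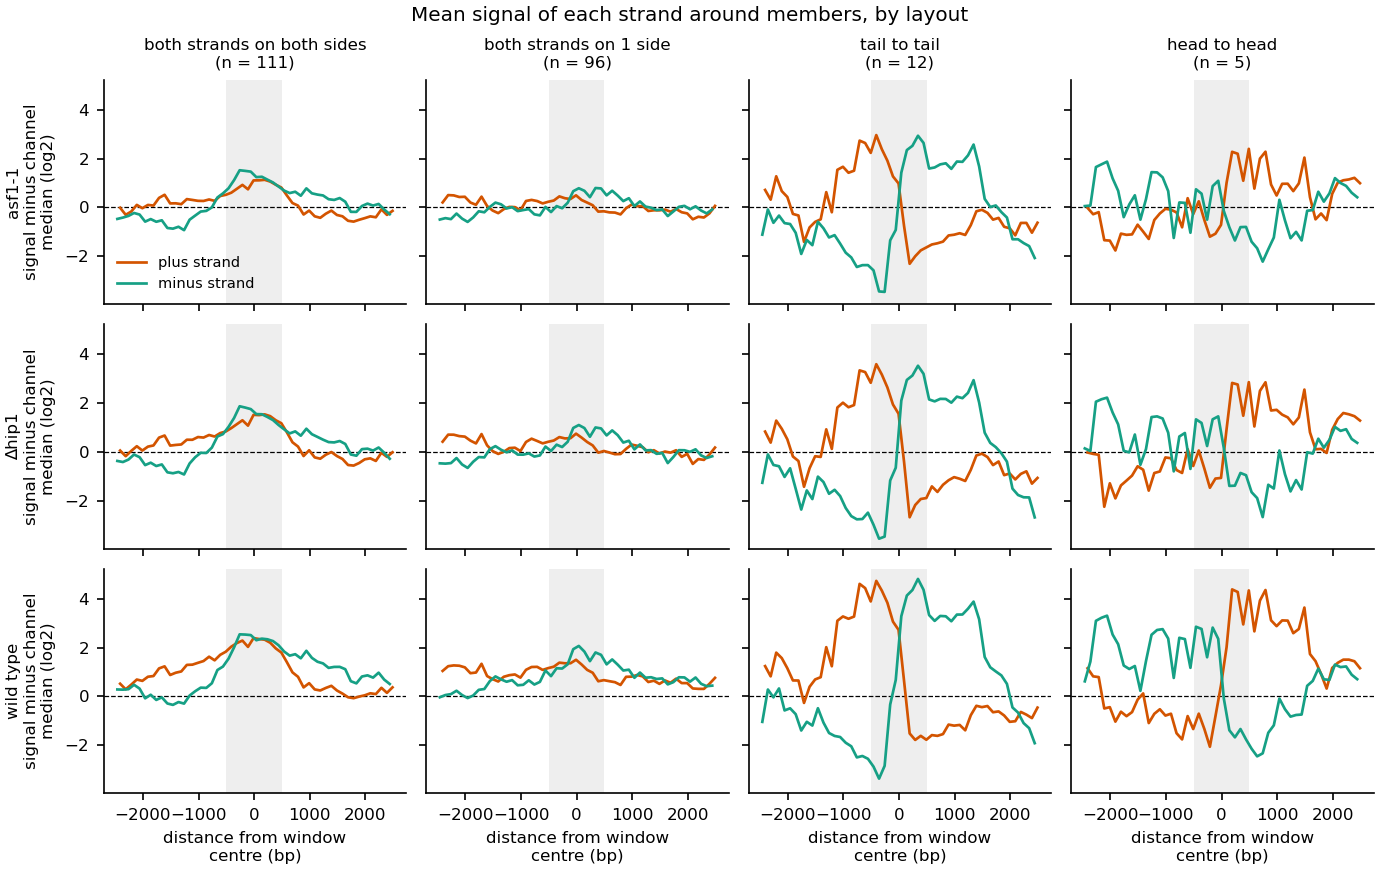
Mean log2 signal of the plus and minus strands around members, less the median of the channel over all window-strands, against the distance of the probe from the window's centre in bp, by layout (columns) and by genotype (asf1-1, ∆hip1, then wild type, rows). The grey band is the window. Both strands peak inside the window in the 111 members with both strands on both sides, and the 12 tail-to-tail members show 1 strand giving way to the other at the centre in all 3 genotypes.

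The windows on either side were then used to place the members, by which of their strands was brighter in wild type. The plus strand was brighter on the left and the minus strand on the right of 82 members (36.6%), so that these members lay between tail-to-tail neighbours. Head-to-head neighbours flanked 40 members (17.9%), and 102 (45.5%) had neighbours with the same brighter strand. Tail-to-tail neighbours were found beside 20.9% of windows with 1 strand and 10.8% of windows with neither. Head-to-head neighbours were found beside 17.7% and 48.4% of these. By these shares the tail-to-tail setting was highest for members and the head-to-head setting for windows with neither strand. Counting a neighbour only where its strands lay at least 2-fold apart gave 36.0% tail to tail over 161 members, against 21.8% and 9.14% of the other classes. These are shares of windows that share neighbours, chosen by the same channel, and were not tested. Of the members with both strands on both sides, 40.5% lay between tail-to-tail neighbours, as did 9 of the 12 members with the tail-to-tail layout. Of the 5 head-to-head members, 4 lay between head-to-head neighbours.

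The brightest members show what these layouts look like. At 1765001 to 1766000 the dimmer strand was the brightest of all members. Its plus strand had 13.36 in asf1-1 and 13.19 in ∆hip1, against 13.85 and 13.81 in wild type, and its minus strand had 13.19 and 12.62, against 13.22 and 13.06. The wild-type signal of its minus strand was 8.23 on the left side and 13.41 on the right side, while its plus strand had 10.99 and 14.77, so both were bright together on the right side. At 2346001 to 2347000 all 10 probe pairs were above the threshold. Its plus strand had 13.12 in asf1-1 and 12.94 in ∆hip1, against 13.29 and 13.38 in wild type. Its minus strand had 13.85 and 12.97, against 12.85 and 12.68, which gave log2 ratios of 1.31 ± 0.35 in asf1-1 and 0.86 ± 0.25 in ∆hip1 (SD over 10 probes). The remaining 6 of the 8 brightest members, at 1866001, 2655001, 1384001, 2006001, 2549001 and 2343001, had no strand past 2-fold in either mutant. Their largest ratio was that of the minus strand at 2006001, with 0.78 ± 0.41 in asf1-1 and 0.45 ± 0.30 in ∆hip1. Of these 8 members, 6 lay between tail-to-tail neighbours.

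A level in a red and a level in a green channel cannot be set against each other directly. Before normalization the red channel exceeded the green by a median log2 ratio of 0.84 for asf1-1 and 0.14 for ∆hip1. Red values also spread less: the SD over all window-strands was 2.17 in asf1-1 and 2.61 in ∆hip1, against 2.996 and 3.18 in wild type. Whole-array loess normalization removes a difference between the channels that follows intensity, whether it comes from dye or genotype, which cannot be told apart here. The ratios given here are after this step, as log2 of mutant over wild type. A dim strand can therefore have a higher level in the red channel and a ratio below 0. Levels are given as log2 signal of the channel itself.

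Each channel was next classified against its own median. Both strands were at or above the median in 357 windows (18.8%) of the asf1-1 channel and 345 (18.1%) of the ∆hip1 channel, against 220 (11.6%) and 232 (12.2%) of the wild-type channels on the same arrays. Of the 224 members, 150 (67.0%) kept both strands there in asf1-1 and 162 (72.3%) in ∆hip1, against 209 (93.3%) and 212 (94.6%) in the wild-type channels. The wild-type shares rest on the channels that chose the members and are high by that choice. The strand lost was mostly the dimmer one, which by the selection lies nearer the threshold in wild type: 63 members had 1 strand in asf1-1, with the dimmer one below in 46 and the brighter in 17, and 53 did in ∆hip1, with 45 and 8. Both mutants together kept 144 members on both strands, and 56 members were in neither mutant's set. Windows with signal on 1 strand in wild type joined the both-strand set in 205 cases (14.1%) in asf1-1 and in 183 (12.6%) in ∆hip1, and 154 of these joined in both mutants. The larger mutant sets thus came with losses of members as well as gains of other windows.

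The strands of a member were closer together in the mutant channels. The median difference, brighter minus dimmer strand as set in wild type, was 0.72 in asf1-1 and 0.90 in ∆hip1, against 1.94 and 1.80 in wild type on the same arrays. It was smaller than in wild type in 192 members for asf1-1 and in 184 for ∆hip1. The order of the strands was turned in 66 members in asf1-1 and 56 in ∆hip1, against 9 and 4 in the single wild-type channels. The wild-type channels themselves named the brighter and the dimmer strand, so few turns and a wider difference there follow in part from that choice. Windows with 1 strand had medians of 2.89 in asf1-1 and 3.73 in ∆hip1, against 5.70 and 5.98, and windows with neither had 0.78 and 0.87, against 0.99 and 1.03. The narrower difference was thus found in every class, and the smaller spread of the red channels moves with it. The part of the dye in it was not tested. Members with both strands on both sides kept both strands above the channel median in 94 cases (84.7%) in asf1-1 and 98 (88.3%) in ∆hip1. Members with both strands on 1 side did so in 51 (53.1%) and 56 (58.3%) of cases. The tail-to-tail members did so in 3 and 4 of 12 cases, and the head-to-head members in 2 and 4 of 5. These layouts also differed in wild-type level. The dimmer strand had a wild-type median of 10.58 in members with both strands on both sides. It lay nearer the threshold in the other layouts, with 9.48 for both strands on 1 side, 9.59 for tail to tail and 9.52 for head to head. Whether the shares differ with layout at equal wild-type level was not tested.

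**Figure D3:**
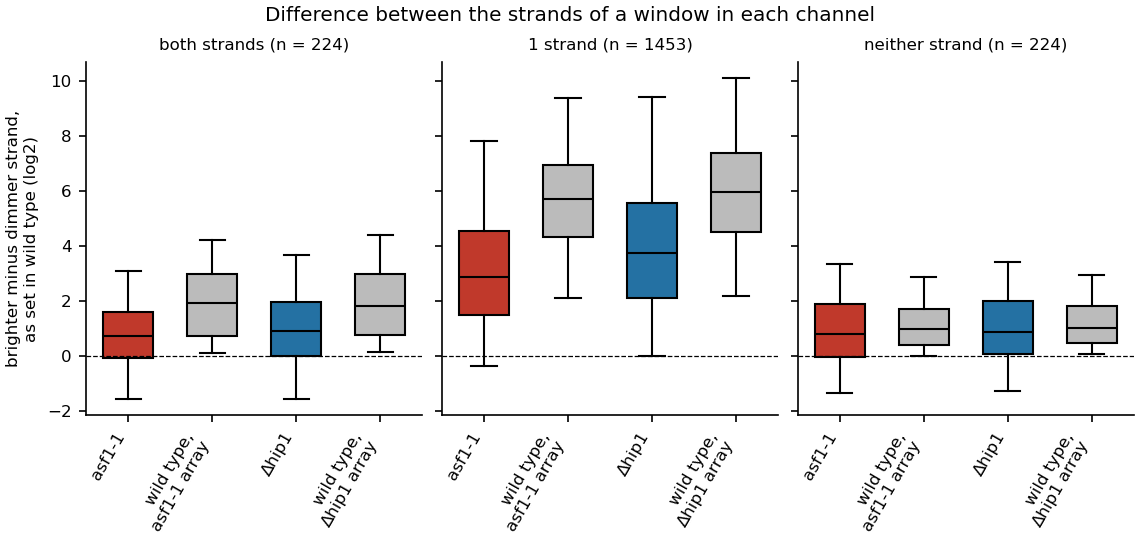
Difference between the strands of a window (brighter minus dimmer as set in wild type, log2) in the asf1-1 and ∆hip1 channels (coloured) and the wild-type channel of the same array (grey), for the 3 classes of windows. Boxes show the median and quartiles and whiskers the central 90 percent of windows. The members' medians are 0.72 and 0.90 in the mutants, against 1.94 and 1.80 in wild type.

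Most member strands kept their level relative to wild type within 2-fold. Of 448 member strands, 53 (11.8%) were at least 2-fold higher in asf1-1, against 13.6% of all 4380 window-strands measured on the array, and 29 (6.47%) at least 2-fold lower, against 7.42%. In ∆hip1 56 (12.5%) were higher, against 12.7%, and 19 (4.24%) were lower, against 3.61%. After loess the members' shares lay near those of the whole array in both directions, so the counts are no result about the members as such. Under other scalings the higher share of members lay below that of all strands of the 1901 windows: it was 10.3% in asf1-1 and 9.38% in ∆hip1 with the scanner's own log ratio, against 21.7% and 19.2%, and 11.6% and 10.3% with median centring, against 26.7% and 20.2%. With the authors' deposited table it was 10.3% and 9.38%, against 19.98% and 17.8%. The balance of the calls depends on the scaling. Higher calls were 64.6% of the member calls in asf1-1 and 74.7% in ∆hip1 after loess, 46.9% and 49.4% with the scanner's own log ratio, 46.5% and 49.4% with the authors' deposited table, and 36.6% and 51.7% with median centring. The median over member strands was -0.01 in asf1-1 and 0.04 in ∆hip1 after loess.

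The higher strands were mostly the dimmer ones. In asf1-1 46 of the 53 higher strands were the dimmer strand of their member, and in ∆hip1 51 of 56. The same was found outside the members: in windows with signal on 1 strand, 356 dimmer and 41 brighter strands were higher in asf1-1, and 380 and 26 in ∆hip1. The dimmer strand had a median ratio of 0.18 in asf1-1 and 0.22 in ∆hip1, and the brighter strand -0.14 and -0.10. The dimmer strand had the higher ratio in 139 members (62.1%) in asf1-1 and 147 (65.6%) in ∆hip1, against 76.1% and 75.2% of windows with signal on 1 strand. There the dimmer strand had medians of 0.45 in asf1-1 and 0.37 in ∆hip1, and the brighter strand -0.23 and -0.15. In windows with neither strand above the threshold, both strands lay below 0, with -0.11 and -0.13 on the dimmer and -0.30 and -0.27 on the brighter strand. The wild-type signal names the dimmer strand and is also the divisor of each ratio, so a direction by strand is in part fixed by that choice and is given as a description. With the strand named from wild-type signal of the array not used for the ratio, the dimmer-strand medians of members were 0.16 in asf1-1 and 0.22 in ∆hip1. Membership still rests on both wild-type channels, which may hold the same extract, so this naming is not independent of the ratio. With each mutant set against the wild-type signal of the opposite array the dimmer-strand medians were 0.09 and 0.40. With the scanner's log ratio they were 0.01 and 0.06, and with the authors' deposited table both were 0, so this shift of the dimmer strand did not hold under every scaling.

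**Figure D4:**
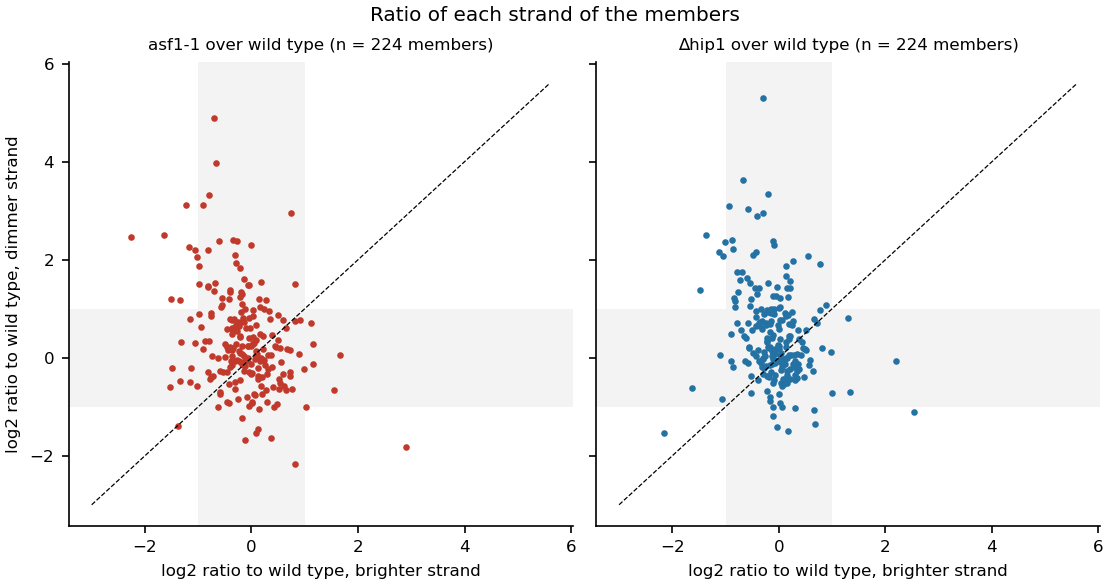
Log2 ratio to wild type of the dimmer strand (vertical axis) against that of the brighter strand (horizontal axis) of each of the 224 members, for asf1-1 (left) and ∆hip1 (right), after loess. Grey bands mark less than 2-fold change and the dashed line equal ratios. Points past 2-fold lie mostly upwards, on the dimmer strand, and no member has both strands 2-fold higher.

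No member had both strands at least 2-fold higher in either mutant, and 1 member in each had both at least 2-fold lower. Such windows were few elsewhere too, with both strands higher in 4 windows with signal on 1 strand in asf1-1 and 3 in ∆hip1, of 1445 measured on both strands. In 8 members in asf1-1 and 5 in ∆hip1 the dimmer strand was at least 2-fold higher and the brighter at least 2-fold lower, which is 3.57% and 2.23% of members, against 4.64% and 1.73% of windows with signal on 1 strand. In 2 members in asf1-1 and 1 in ∆hip1 the brighter strand was the higher one and the dimmer the lower. In ∆hip1 the 5 members were those at 1127001, 1581001, 2246001, 2337001 and 2517001, named because they make up this count, after their values were seen. At 2517001 the minus strand had a level of 13.01 in asf1-1 and 12.04 in ∆hip1, against 10.21 and 9.89 in wild type, with ratios of 2.21 and 2.37. Its plus strand had 13.15 and 13.09, against 14.53 and 14.64, with ratios of -1.06 and -1.02.

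The ratios of the mutants were also set against each other. Both ratios may divide by 1 wild-type extract, on which the labels are silent. The asf1-1 ratio was at least 2-fold above the ∆hip1 ratio on 1 member strand (0.223%, against 1.44% of all window-strands) and at least 2-fold below on 5 (1.12%, against 1.48%). These counts depend on the processing: the scanner's log ratio gave 4 above and 2 below, and wild-type channels crossed between the arrays 9 and 16. Shares over all window-strands are not given for these settings, so their counts are no result about the members. The median difference between the mutants, asf1-1 minus ∆hip1, was -0.08.

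The largest ratio among members was on the minus strand at 2573001 to 2574000. Its level was 14.87 in asf1-1 and 14.64 in ∆hip1, against 9.68 and 9.34 in wild type. The ratio was 4.88 ± 0.77 in asf1-1 and 5.30 ± 0.59 in ∆hip1, with all 10 probes past 2-fold in both mutants. The plus strand of the same window was the brighter one in wild type, with 11.38 in asf1-1 and 10.96 in ∆hip1, against 12.03 and 11.90, and ratios of -0.71 ± 0.54 and -0.30 ± 0.41 (SD over 9 probes). The strand order was therefore turned in both mutants. On the minus strand the window to the right had ratios of 1.89 in asf1-1 and 1.73 in ∆hip1, and the window to the left -0.66 and -0.54. The higher signal thus lay in this window and its right neighbour.

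The next highest strands also held most or all of their probes past 2-fold. On the minus strand at 1214001 to 1215000 the level was 13.92 in asf1-1 and 12.02 in ∆hip1, against 9.70 and 8.61 in wild type. The ratio was 3.98 ± 0.23 in asf1-1 and 3.34 ± 0.72 in ∆hip1 (SD over 10 probes), and its lowest probe had 3.49 and 1.83. This strand changed along its whole width, and both neighbouring windows were past 2-fold too, with 1.54 on the left and 2.96 on the right in asf1-1 and 2.20 and 1.11 in ∆hip1. On the minus strand at 1697001 to 1698000 the level was 13.13 in asf1-1 and 12.63 in ∆hip1, against 9.60 and 9.47, with ratios of 3.12 ± 0.26 and 3.63 ± 0.28. On this strand the left neighbour had -1.21 in asf1-1 and -0.92 in ∆hip1, and the right neighbour 0.89 and 1.49. The plus strands of both windows had ratios from -0.90 to -0.21.

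The others were less even. At 1672001 on the minus strand and at 2836001 and 1936001 on the plus strand, the ratio differed widely along the window. The minus strand at 1672001 had 3.33 ± 1.99 in asf1-1 and 2.89 ± 1.42 in ∆hip1, with 8 of 10 probes past 2-fold higher in each, and a lowest probe of -2.69 and -0.89. The plus strand at 2836001 had 3.11 ± 1.61 in asf1-1 and 3.10 ± 1.34 in ∆hip1. Its wild-type level was 7.42 on the left side and 10.30 on the right. The sides had 10.69 and 13.71 in asf1-1 and 10.57 and 12.96 in ∆hip1, red levels that cannot be set directly against wild type. By the ratios, 6 of 10 probes were past 2-fold higher in asf1-1 and 7 in ∆hip1, with a lowest probe of -0.17 and 0.18. The plus strand at 1936001 had 2.30 ± 1.82 in asf1-1 and 2.95 ± 1.60 in ∆hip1, with 6 of 10 probes past 2-fold higher. At 1226001 the plus strand was 2.96 ± 0.84 in asf1-1 and 2.08 ± 0.73 in ∆hip1, and its left side was brighter than its right in all genotypes. At 2513001 the plus strand was 2.39 ± 1.05 in asf1-1 and 3.03 ± 0.77 in ∆hip1, and neither neighbouring window was past 2-fold, with 0.05 and -0.45 in asf1-1 and 0.06 and -0.17 in ∆hip1.

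Among the lowest strands, the minus strand at 2246001 to 2247000 had a level of 10.89 in asf1-1 and 11.23 in ∆hip1, against 12.99 and 12.81 in wild type. Its ratio was -2.26 ± 0.51 in asf1-1 and -1.12 ± 0.48 in ∆hip1 (SD over 9 probes). This member is head to head: in wild type the minus strand had 13.27 on the left side and 8.19 in the right, and the plus strand 8.73 on the left and 11.42 in the right. On the plus strand the left side had 12.68 in asf1-1 and 11.45 in ∆hip1, and the whole strand a ratio of 2.46 ± 0.97 and 2.16 ± 0.99, with all 10 probes past 2-fold. In both mutants the plus strand thus had signal over the side that only the minus strand filled in wild type. The plus strand of the window to the left had 1.41 in asf1-1 and 1.55 in ∆hip1, and its minus strand -1.04 and -0.44.

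At 2337001 to 2338000, whose strands overlapped at all 10 probe pairs, the plus strand had a ratio of -1.65 ± 0.58 in asf1-1 and -1.38 ± 0.39 in ∆hip1, and the minus strand 2.51 ± 0.26 and 2.51 ± 0.19 (SD over 10 probes). The minus strand had 13.06 in asf1-1 and 11.62 in ∆hip1, against 10.28 and 9.11 in wild type. At 1566001 the minus strand had -1.82 ± 1.17 in asf1-1 and -1.11 ± 0.85 in ∆hip1, and the plus strand 2.90 ± 0.92 and 2.54 ± 0.71. By their window medians, opposite strands of these members thus moved in opposite directions. So did those at 1581001, where the plus strand had -1.34 ± 0.94 in asf1-1 and -1.47 ± 0.77 in ∆hip1 and the minus strand 1.18 ± 1.88 and 1.38 ± 1.43. The probes of that minus strand were mixed. Of 10, 5 were past 2-fold higher and 2 past 2-fold lower in asf1-1, and 7 and 2 in ∆hip1. At 1160001 the dimmer minus strand had -2.16 ± 0.64 in asf1-1 and -1.35 ± 0.50 in ∆hip1, under a plus strand with 0.82 ± 0.17 and 0.67 ± 0.09. At 1266001 both strands were below 0, with -1.54 ± 0.46 and -1.63 ± 0.27 on the minus strand and -0.60 ± 0.31 and -0.62 ± 0.29 on the plus strand.

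At 2903001 the mutants differed most. Its plus strand had a level of 11.40 in asf1-1 and 9.15 in ∆hip1, against 11.95 and 11.51 in wild type. The ratio was -0.63 ± 1.19 in asf1-1, with 3 of 10 probes past 2-fold lower, and -2.15 ± 0.91 in ∆hip1, with all 10. The difference of 1.52 between the mutants rests on 1 array each. In the other direction the plus strand at 2266001 had -0.46 ± 0.59 in asf1-1 and 1.00 ± 0.81 in ∆hip1, a difference of -1.46. On the other strands named for this difference, the mutants differed by at most 1.19.

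**Figure D5:**
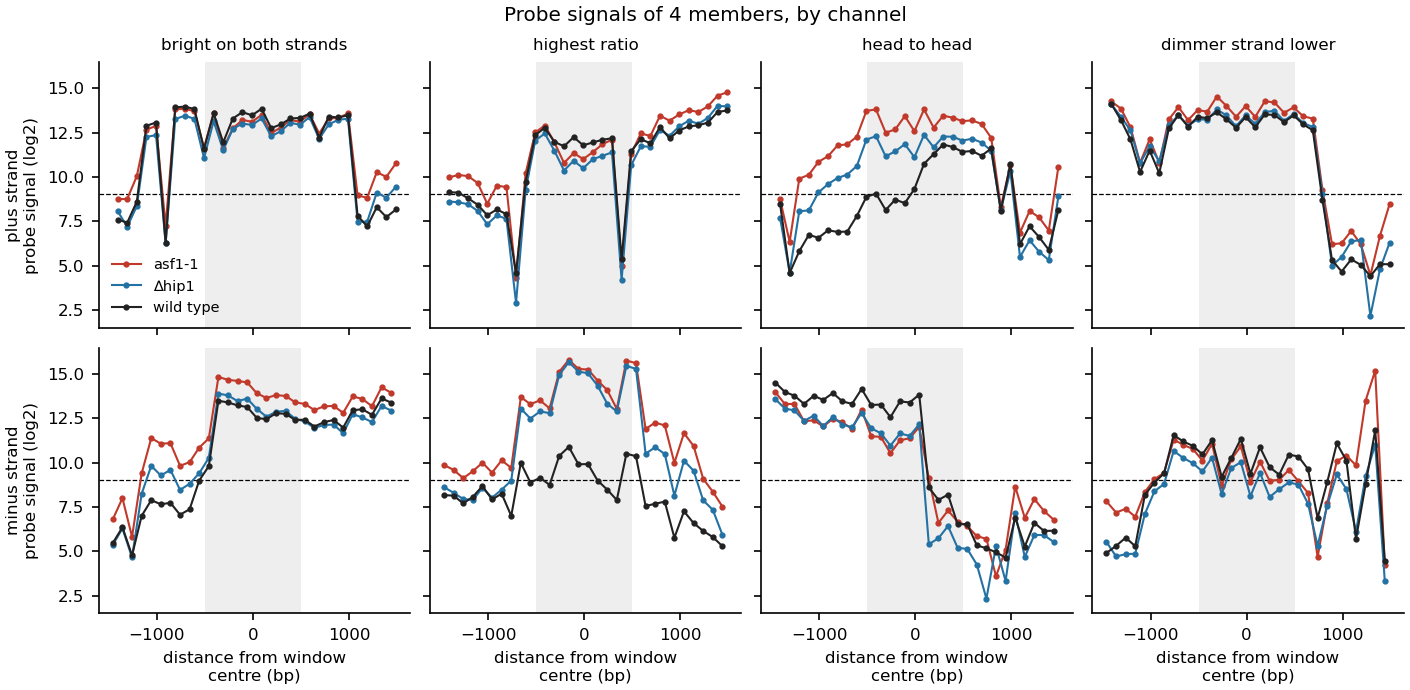
Log2 signal of each probe in the asf1-1, ∆hip1 and wild-type channels against its distance from the window centre in bp, on the plus strand (top) and minus strand (bottom) of the members at 2346001, 2573001, 2246001 and 1160001, from left to right. The grey band is the member and the dashed line the wild-type threshold of 9.02. At 2573001 all minus-strand probes of both mutants lie above wild type, and at 2246001 the plus strand of the mutants is bright on the left side, where it is dim in wild type.

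The median ratios of the dimmer strand also differed with layout. In members with both strands on both sides, the dimmer strand had median ratios of 0.29 in asf1-1 and 0.52 in ∆hip1, and 27 of 111 were at least 2-fold higher in each mutant. In members with both strands on 1 side it had 0.04 and 0.10, with 17 and 22 of 96. The 12 tail-to-tail members had -0.18 and -0.12 and none past 2-fold higher in either mutant, and the 5 head-to-head members had 0.72 and 0.70 with 2. The head-to-head and tail-to-tail members are few, and these differences were not tested. Over all members, 20.5% of dimmer strands in asf1-1 and 22.8% in ∆hip1 were at least 2-fold higher. The counts of the layouts with 111 and 96 members lay near these shares and are no result about a layout. In the 40 members between head-to-head neighbours the median of the dimmer strand was 0.32 in asf1-1 and 0.66 in ∆hip1, with 13 and 14 at least 2-fold higher. In the 82 members between tail-to-tail neighbours it had 0.07 and 0.11, with 16 in each mutant. In the 102 with neighbours on the same strand it had 0.21 and 0.32, with 17 and 21. The share past 2-fold higher was thus 32.5% and 35.0% beside head-to-head neighbours, against 19.5% in both mutants beside tail-to-tail neighbours. It was 24.6% and 26.3% of the dimmer strands of windows with signal on 1 strand. Beside head-to-head neighbours the lower quartile was also lowest, at -0.61 in asf1-1 and -0.25 in ∆hip1. It was -0.36 and -0.17 beside tail-to-tail neighbours, and -0.18 and -0.07 with neighbours on the same strand. Dimmer strands at least 2-fold lower numbered 4 and 2 of the 40 head-to-head, 3 and 2 of the 82 tail-to-tail and 4 and 6 of the 102 same-strand members. The head-to-head medians were 0.05 in asf1-1 and 0 in ∆hip1 with the authors' deposited table, and 0.30 in ∆hip1 with the scanner's log ratio. By the difference between the strands in wild type, no steady order was seen: the medians were 0.10 and 0.18 where the strands were less than 2-fold apart, 0.24 and 0.37 at 2-fold to 8-fold, and 0.09 and 0.23 at 8-fold or more.

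Where a strand of a member was above the threshold on 1 side and below it in the other, the quiet side lies either upstream or downstream of the bright side along that strand. Upstream quiet sides numbered 60. Their median ratio was 0.05 in asf1-1 and 0.08 in ∆hip1, with 12 and 16 (26.7%) at least 2-fold higher and 9 and 8 lower. Downstream quiet sides numbered 80, of which 79 had a ratio. Theirs was -0.12 in asf1-1 and -0.04 in ∆hip1, with 5 and 10 at least 2-fold higher and 9 and 5 lower. In windows with signal on 1 strand, upstream quiet sides had -0.28 in asf1-1 and -0.18 in ∆hip1, with 12.8% and 11.9% at least 2-fold higher, and downstream ones had -0.19 and -0.10, where of 243 with a ratio 19 and 21 were at least 2-fold higher and 34 and 10 lower. The medians of members lay close to 0 on both sides, and a minority of upstream sides, such as that of the plus strand at 2246001, held the higher values. Quiet sides were chosen by low wild-type signal, which also divides the ratio, so these values are a description. The wild-type median of quiet sides in members was 8.20 upstream and 7.78 downstream. In windows with signal on 1 strand it was 7.50 and 7.06. Whether the shares differ at equal wild-type level was not tested.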

How the data were processed

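RNA of asf1-1 and ∆hip1 was hybridised against wild-type RNA on 2 two-colour Agilent arrays. The deposited intensity values (median signal and local background of each spot) were read with Agilent Feature Extraction 10.1.1.1, per the file headers, and carry no normalization. The deposited log10 ratio is dye-normalized, per the file headers, and matched the processed signals (to 0.001) for 96.1% of the probes (asf1-1) and 94.3% (∆hip1). The deposited p-value describes 1 spot. In the series table the authors' log2 values matched the scanner ratio (to 0.01), except for 36.1% and 43.1% of probes that are listed at 0, all with a p-value above 0.05. Its medians without the zeros were -0.456 and -0.473. Its scale and direction follow from this match, and no further centring was found.

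Levels are log2 of median signal minus local background, with a floor of 1. For ratios, signals were corrected with normexp (offset 50) and normalized by loess within each array in limma 3.58.1 under R 4.3.3, where the 1227 control spots and all outliers had weight 0. Ratios leave out 850 of 43993 probes for an outlier flag on either array, 61 of them in members, and any probe that no channel of the 4 had well above background. Windows of 1 kb took the probes that start in them, with at least 3 for each strand, and every member strand had at least 7 for its ratio. An SD given with a ratio is over the probes of 1 window and covers spot differences only. Differences at or past 2-fold were counted, with all 4380 window-strands of the array as background. The steps were tested on simulated data. Python 3.11.15, numpy 2.4.6, pandas 2.3.3, scipy 1.17.1 and matplotlib 3.10.9 were used.

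The members, the layouts and the rules were chosen with earlier results of these data known. Windows are named by rule: the 8 with the brightest dimmer strand, 3 on either side of the threshold, the 6 highest and 6 lowest strands for each mutant with at least 5 probes and 80% of them on 1 side, the 4 largest differences between mutants each way, the 3 longest runs, and 2 for each layout. Not every one of these is described. No gene is named, since the build is not given. Alternatives were other scalings, filters, centres, thresholds and wild-type channels, and windows shifted by 500 bp.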

Additional observations from a re-analysis of the deposited data

How the results depend on the processing

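No paired analysis was possible because there is a single array for asf1-1 and for ∆hip1. A count was taken as moved past a factor of 1.5, a median past 0.25 (log2) and a share outside its 95% binomial interval. These limits are marks for sorting only. All settings reuse the same spots, and 126 of the 224 members adjoin another member. The interval therefore does not measure the spread between settings or between cultures. Of the comparisons of main results with their alternatives, 119 stayed within these limits, 26 moved and none reversed, each value taken alone. The balance of higher and lower calls did turn under some scalings. In asf1-1, 53 higher and 29 lower strands became 46 and 52 (scanner log ratio), 46 and 53 (authors' table) and 52 and 90 (median centring). In ∆hip1, 56 and 19 became 42 and 43 under the first 2 of these. Median centring gave 46 and 43 there, which is not turned. The counts between the mutants, given below, turned under some settings too. The share of members with both strands over the same 500 bp, 92.4%, was 83.8% with the mean over probes and 57.6% with the threshold raised by 1 for the sides. The wild-type strand difference was 1.33 with the mean over probes, and that in asf1-1 was 0.986 with scanner processed signals. Lower strands in asf1-1 numbered 52 (11.6%, scanner log ratio), 53 (11.8%, series table) and 90 (20.1%, median centring), against 29. The shares over all strands of the 1901 windows were 13.0%, 12.7% and 20.9%. In ∆hip1 lower member strands numbered 43 (9.60%) with each of these, against 19, and the shares over all strands were 11.3%, 10.7% and 9.83%. These shifts are thus no result about the members. Strands 2-fold higher in asf1-1 than in ∆hip1 numbered 4 (scanner log ratio, series table), 3 (median centring) and 9 (crossed wild-type channels), against 1. Those 2-fold lower numbered 2 with the scanner log ratio and with median centring, 1 with the mean and 16 with crossed channels, against 5. With a 1.5-fold threshold there were 103 higher and 81 lower strands in asf1-1, 102 and 49 in ∆hip1, and 13 and 36 between the mutants. Shares over all strands are not given for the 1.5-fold counts or the other counts between the mutants, so these are no result about the members. The median ratio of the brighter strand was -0.831 in asf1-1 and -0.607 in ∆hip1 with median centring. The mean over probes gave 216 members, 179 of them the same windows. Of 360 values of named strands under other settings, 340 stayed within the SD over probes and none reversed. This SD is wide on uneven strands, such as 1.99 on the minus strand at 1672001 in asf1-1. Staying within it is a loose limit there. The neighbour limits, the quiet sides, the counts in single channels and the groups by neighbours were added after seeing the data. For the groups by neighbours, the series table gave head-to-head dimmer-strand medians of 0.05 in asf1-1 and 0 in ∆hip1, and the scanner log ratio 0.30 in ∆hip1. The cause of these shifts was not tested. Members were chosen for bright wild-type signal, so their high share of probes above background follows from the rule.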
